A study of Caenorhabditis elegans with 8 samples.

Results

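The annular furrow collagens are 6 cuticle collagens of *C. elegans*, encoded by *dpy-2* (T14B4.6), *dpy-3* (EGAP7.1), *dpy-7* (F46C8.6), *dpy-8* (C31H2.2), *dpy-9* (T21D12.2) and *dpy-10* (T14B4.7). They were selected by gene identifier, without use of their values, from the 45461 annotated features of the expression table, and all 6 were among the 21372 features with at least 1 read that could be tested. The RNA came from whole young adults of 4 strains, with 2 biological replicates per strain (8 libraries in all) and about 150 hand-picked animals per library, grown at 22.5°C. The study asked which responses to activated HIF-1, the hypoxia-inducible transcription factor, need the cytochrome P450 CYP-36A1.

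The strains were the wild type (N2), *egl-9(lf)* mutants with the allele *sa307* (strain JT307), double mutants *egl-9(lf) hif-1(lf)* with the alleles *sa307* and *ia4* (strain CB6088), and double mutants *cyp-36A1(lf); egl-9(lf)* with the alleles *gk824636* and *sa307* (strain MT22836). The double mutants are called below the *hif-1* double mutant and the *cyp-36A1* double mutant. EGL-9 uses oxygen to hydroxylate prolines of HIF-1, which leads to its degradation, so that HIF-1 accumulates in *egl-9(lf)* mutants. Both double mutants carry the same *egl-9* allele as the single mutant, no single *hif-1* or *cyp-36A1* mutant is among the libraries used here, and each genotype was represented by 1 strain, so that the effect of an allele and that of other differences between strains cannot be told apart.

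The cuticle is a layered collagen exoskeleton that the epidermis secretes anew for each molt. Annular furrows are the circular grooves that divide its surface into regular rings, and the furrow collagens lie in bands along them. Loss of any of these collagens removes the furrows and makes the animals short and fat, the dumpy phenotype for which the genes are named. Furrow loss is also known to switch on osmolyte, detoxification and antimicrobial peptide genes in the epidermis, which do not respond in this way to loss of most other cuticle collagens. Transcription of cuticle collagens peaks in each molting cycle, and the furrow collagens belong to the early part of that wave. The animals here were past their last molt.

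The 6 genes had low RNA levels in every strain. Levels are given as CPM (expected read counts per 1000000 counts of effective library size) or, where genes are compared with each other, as FPKM, which also divides by gene length. The mean FPKM over the 8 libraries was highest for *dpy-10* (1.89) and lowest for *dpy-7* (0.234). The other genes lay between them, at 1.36 FPKM for *dpy-8*, 1.17 for *dpy-9*, 0.876 for *dpy-2* and 0.835 for *dpy-3*. These levels corresponded to percentiles 25.5 to 46.3 among the tested features, whose median was 2.70 FPKM. In reads, *dpy-10* had 382 over all libraries and *dpy-7* had 33, with 2 to 8 per library. Library totals ranged from 11925027 to 22269111 expected counts, and both extremes were wild-type libraries.

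The libraries were checked for RNA of the tissue that makes these collagens. All 6 epidermal marker genes that were examined (*lin-26*, *elt-3*, *ajm-1*, *che-14*, *mup-4* and *vab-10*) were detected in every library, and their summed level was 548 to 623 CPM in the wild type, 507 to 599 in *egl-9(lf)* mutants, 521 to 600 in the *hif-1* double mutant and 430 to 589 in the *cyp-36A1* double mutant. The largest part of this sum was *vab-10*, with a mean of 297.5 CPM in the wild type. How specific the 6 markers are to the epidermis was not tested. Over the 6 pairs of strains edgeR called 0 of 36 comparisons of these markers (3 had an unadjusted p below 0.05, and DESeq2 called 1). For 6 markers each of other tissues edgeR called 7 of 36 comparisons in intestine and 3 in body-wall muscle. It called 1 in neurons and 0 in germline, where 6 had an unadjusted p below 0.05. Among all tested features the share called ran from 0.215% to 13.3% over the 6 pairs of strains. Pairs with a strain in common share its libraries, so the counts for epidermis and other tissues do not show that a tissue was steady. The markers of other tissues were all detected in every library, since whole animals were used. In such samples fewer cells of a type and less RNA per cell cannot be told apart. An allele need not remove the RNA of its gene, and the RNA levels of the 3 mutated genes together told the 4 strains apart without overlap. *egl-9* RNA was 22.5 to 27.1 CPM in the wild type and the *hif-1* double mutant and 85.6 to 112 CPM in *egl-9(lf)* mutants and the *cyp-36A1* double mutant. The RNA of *hif-1* was 43.5 and 45.2 CPM in the *hif-1* double mutant and 128 to 188 CPM in the other 6 libraries, whereas *cyp-36A1* RNA was 29.4 and 55.0 CPM in *egl-9(lf)* mutants, 5.22 and 6.88 in the *hif-1* double mutant and 4.78 and 19.4 in the *cyp-36A1* double mutant.

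Among 36 comparisons (6 genes in 6 pairs of strains), 1 passed the test. This was *dpy-2*, which was lower in the *hif-1* double mutant than in *egl-9(lf)* mutants. Differences were tested with edgeR's quasi-likelihood test on all 21372 features and called at a Benjamini-Hochberg adjusted p below 0.05. In that pair of strains 13.1% of all tested features were called, and 4.25% were called in the lower direction. A single call among 6 genes is too few to be set apart from either share. For *egl-9(lf)* mutants against the wild type 0 of 6 were called where 13.3% of all features were, and no member had an unadjusted p below 0.05 (0 of 6). For the *cyp-36A1* double mutant 0 of 6 were called against *egl-9(lf)* mutants, where 1.57% of all features were, 0 of 6 against the wild type (12.2%) and 0 of 6 against the *hif-1* double mutant (12.2%). For the *hif-1* double mutant against the wild type the count was also 0 of 6 (0.215% of all features). Over all 36 comparisons 2 had an unadjusted p below 0.05 in edgeR, both of *dpy-2*, and DESeq2, used as an alternative, called 0.

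*dpy-2* had the largest contrast between strains. Its level was 1.08 and 1.27 CPM in the 2 wild-type libraries, 1.45 and 1.88 CPM in *egl-9(lf)* mutants, 0.566 and 0.650 CPM in the *hif-1* double mutant, and 1.34 and 1.06 CPM in the *cyp-36A1* double mutant. Both libraries of the *hif-1* double mutant lay below all 6 others. The libraries of the wild type and the *cyp-36A1* double mutant overlapped, and those of *egl-9(lf)* mutants were above both. These values rested on 9 and 12 reads in the *hif-1* double mutant and on 24 and 25 in *egl-9(lf)* mutants.

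The strain means of *dpy-2* were 1.66 ± 0.305 CPM (SD, n = 2) in *egl-9(lf)* mutants and 0.608 ± 0.0594 CPM (SD, n = 2) in the *hif-1* double mutant. The log2 fold change between them was -1.42 (SE 0.41, 95% interval -2.32 to -0.52, edgeR adjusted p = 0.0412), that is between 0.201 and 0.699 of the *egl-9(lf)* level. Relative to the wild type, *dpy-2* had a log2 fold change of 0.51 (SE 0.36, edgeR adjusted p = 0.432) in *egl-9(lf)* mutants and of -0.91 (SE 0.44, edgeR adjusted p = 1.0) in the *hif-1* double mutant. Neither of these passed the test, so the data do not place the contrast above or below the wild type. Between the double mutants, the log2 fold change was 0.98 in favour of the *cyp-36A1* double mutant, with an unadjusted p of 0.0413 and an adjusted p of 0.194 in edgeR. Removal of *cyp-36A1* from *egl-9(lf)* mutants gave a log2 fold change of -0.44 (SE 0.35, edgeR adjusted p = 0.910). An exact permutation test of 2 libraries against 2 cannot give a two-sided p below 0.333.

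**Figure D1:**
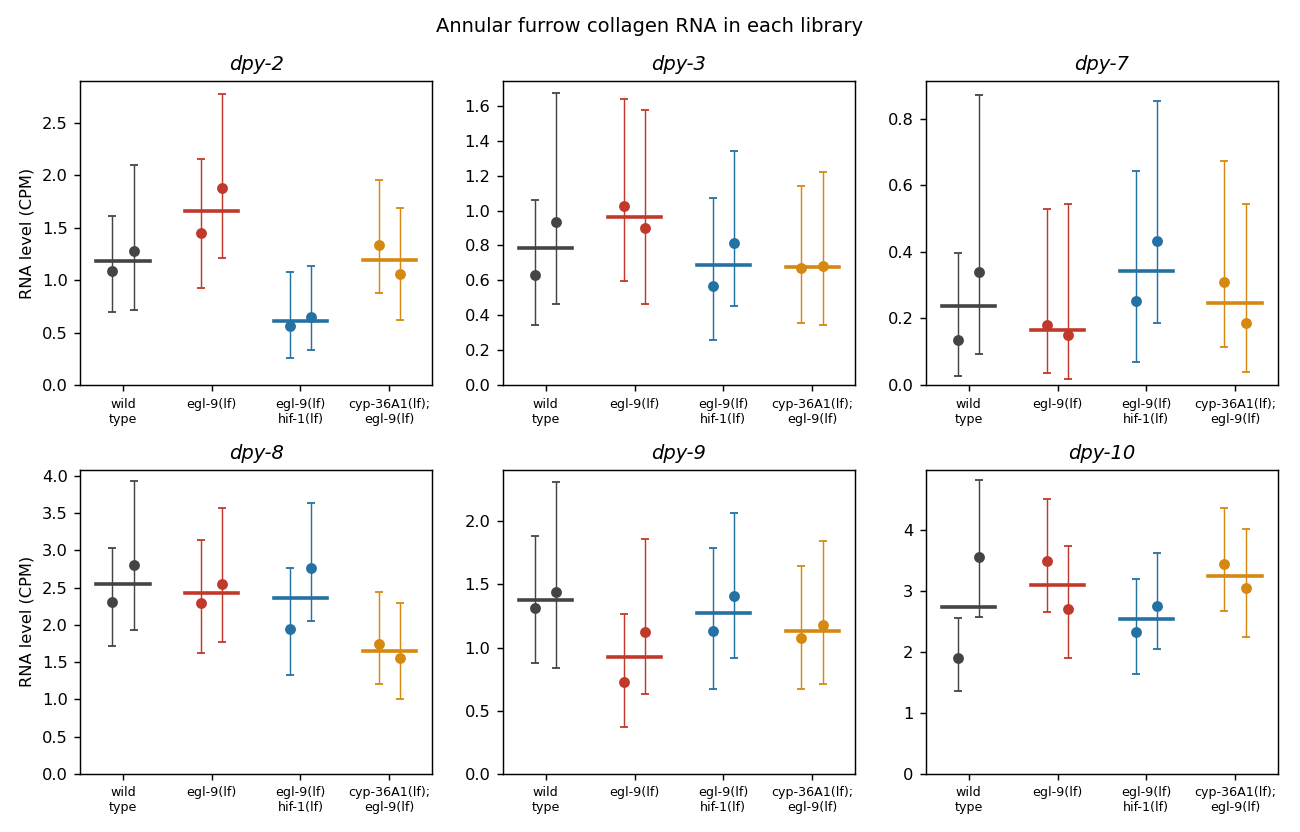
RNA level in CPM (vertical axis, from 0, a separate scale for each gene) of the 6 furrow collagens in the 8 libraries, grouped by strain. Points are libraries, horizontal bars are strain means (n = 2) and vertical bars are 95% exact Poisson intervals, which cover counting error only. For *dpy-2* both libraries of the *hif-1* double mutant, at 0.566 and 0.650 CPM, lie below the 6 others, and for *dpy-8* both libraries of the *cyp-36A1* double mutant, at 1.75 and 1.55 CPM, are the lowest.

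The *dpy-2* call depended on how the data were handled. It was made in 9 of 21 alternatives and not in 12, with adjusted p between 0.0153 and 0.199. It was lost when any 1 of the 8 libraries was left out (a strain left with 1 library is then assumed to vary like the other strains), with adjusted p between 0.0535 (without *cyp-36A1* double mutant replicate 1) and 0.199 (without *egl-9(lf)* replicate 2). It was also lost with DESeq2 (adjusted p = 0.170), with only the 2 strains in the fit (0.109) and with all annotated features tested (0.0880). The log2 fold change stayed negative throughout, from -1.57 to -0.66, the latter with limma on log2(FPKM + 1), a scale that understates changes of low genes.

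**Figure D2:**
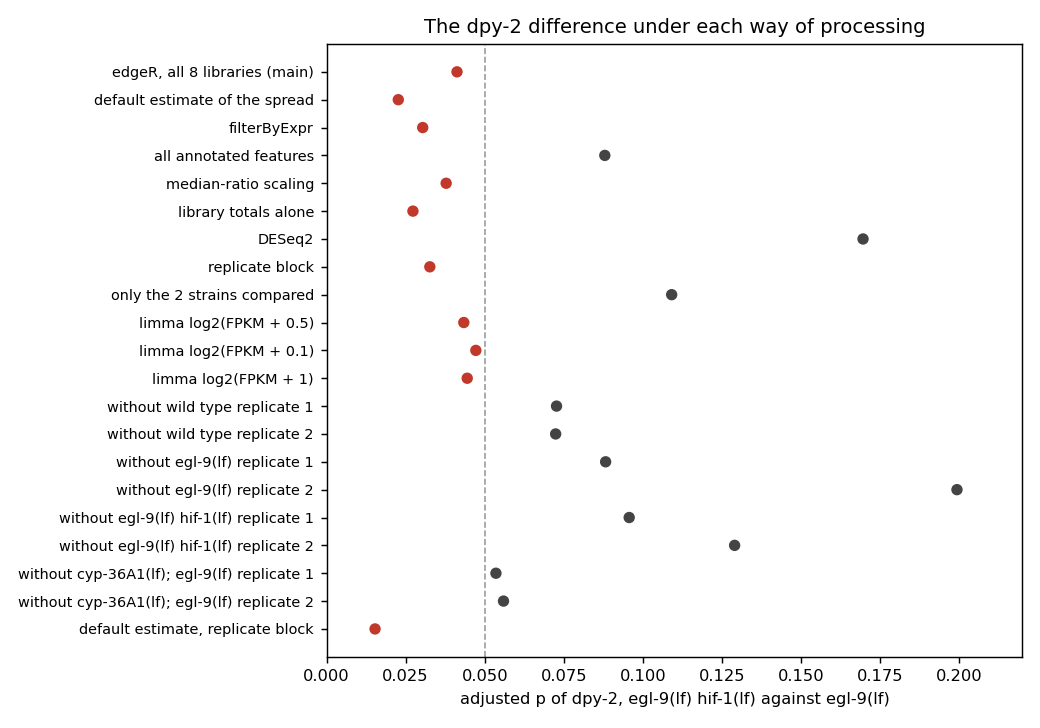
Adjusted p (horizontal axis) of *dpy-2* for the *hif-1* double mutant against *egl-9(lf)* mutants under each way of processing (rows). Red points lie below the threshold of 0.05 (dashed line) and dark points above it. All 8 fits that leave out 1 library lie above the line, between 0.0535 and 0.199.

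*dpy-10* was the most abundant furrow collagen and lies beside *dpy-2* on chromosome II. Loss of *dpy-10* gives dumpy animals, and dominant alleles make them roll, which has made the gene a widely used marker in genome editing. In the WBcel235 annotation *dpy-10* and *dpy-2* are transcribed away from each other, with the gene T14B4.19 between them, which overlaps *dpy-10* on the same strand and is not analysed here. The *dpy-10* level was 1.90 and 3.57 CPM in wild-type animals, 3.50 and 2.70 CPM in *egl-9(lf)* mutants, 2.33 and 2.76 CPM in the *hif-1* double mutant and 3.44 and 3.05 CPM in the *cyp-36A1* double mutant. The wild-type libraries alone spanned the whole range, with 42 reads in each at different library totals. Their 95% exact Poisson intervals, 1.37 to 2.56 CPM and 2.57 to 4.82 CPM, narrowly missed each other. This is 1 of many replicate pairs, and whether these replicates differed by more than counting error was not tested. In the pair of strains in which *dpy-2* was called, the log2 fold change of *dpy-10* was -0.29 (SE 0.32, edgeR adjusted p = 0.641), and in *egl-9(lf)* mutants against the wild type it was 0.31 (SE 0.33, edgeR adjusted p = 0.602).

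*dpy-8*, on the X chromosome, was the member whose lowest strain was the *cyp-36A1* double mutant by the clearest margin. Its level was 2.30 and 2.80 CPM in wild-type animals, 2.29 and 2.55 CPM in *egl-9(lf)* mutants, 1.95 and 2.76 CPM in the *hif-1* double mutant, and 1.75 and 1.55 CPM in the *cyp-36A1* double mutant. Both libraries of the *cyp-36A1* double mutant were below the other 6, and the other strains overlapped. The difference was not called: the log2 fold change was -0.59 (SE 0.31, edgeR unadjusted p = 0.0807, adjusted p = 0.260) against the wild type and -0.54 (SE 0.32, edgeR adjusted p = 0.856) against *egl-9(lf)* mutants. The second interval ran from 0.427 to 1.11 of the *egl-9(lf)* level. Between *egl-9(lf)* mutants and the wild type *dpy-8* was the most tightly bounded of the 6, with a log2 fold change of -0.05 and an interval from 0.618 to 1.51 of the wild-type level. In the WBcel235 annotation *dpy-8* overlaps C31H2.14 on the opposite strand, and reads of overlapping genes cannot be told apart where counting does not use strand.

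*dpy-9*, on chromosome IV, had its lowest mean in *egl-9(lf)* mutants. The level was 1.31 and 1.44 CPM in wild-type animals, 0.723 and 1.13 CPM in *egl-9(lf)* mutants, 1.13 and 1.41 CPM in the *hif-1* double mutant and 1.08 and 1.18 CPM in the *cyp-36A1* double mutant. The *egl-9(lf)* libraries lay below those of the wild type and of the *hif-1* double mutant, in the latter case by less than 0.01 CPM, and overlapped those of the *cyp-36A1* double mutant. The log2 fold change in *egl-9(lf)* mutants was -0.58 (SE 0.40, edgeR adjusted p = 0.415) against the wild type, with an interval from 0.363 to 1.23 of the wild-type level.

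*dpy-3* and *dpy-7*, both on the X chromosome, were the members with the fewest reads. The *dpy-3* level was 0.632 and 0.934 CPM in wild-type animals, 1.02 and 0.901 CPM in *egl-9(lf)* mutants, 0.566 and 0.812 CPM in the *hif-1* double mutant and 0.668 and 0.684 CPM in the *cyp-36A1* double mutant. It was highest on average in *egl-9(lf)* mutants, but one wild-type library exceeded one *egl-9(lf)* library. Its expected count was not a whole number in any of the 8 libraries, which shows that RSEM divided reads between it and other features, so its values carry that uncertainty too. *dpy-7*, whose promoter is commonly used to express transgenes in the epidermis, stood at 0.135 and 0.340 CPM in wild-type animals, 0.181 and 0.150 CPM in *egl-9(lf)* mutants, 0.252 and 0.433 CPM in the *hif-1* double mutant and 0.308 and 0.186 CPM in the *cyp-36A1* double mutant. With 2 to 8 reads per library, the log2 fold change of 1.03 for the *hif-1* double mutant against *egl-9(lf)* mutants had an interval from 0.604 to 6.90 of the *egl-9(lf)* level (edgeR adjusted p = 0.522). This interval therefore did not exclude a difference of several fold in *dpy-7*. What size of difference could be detected was not tested.

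**Figure D3:**
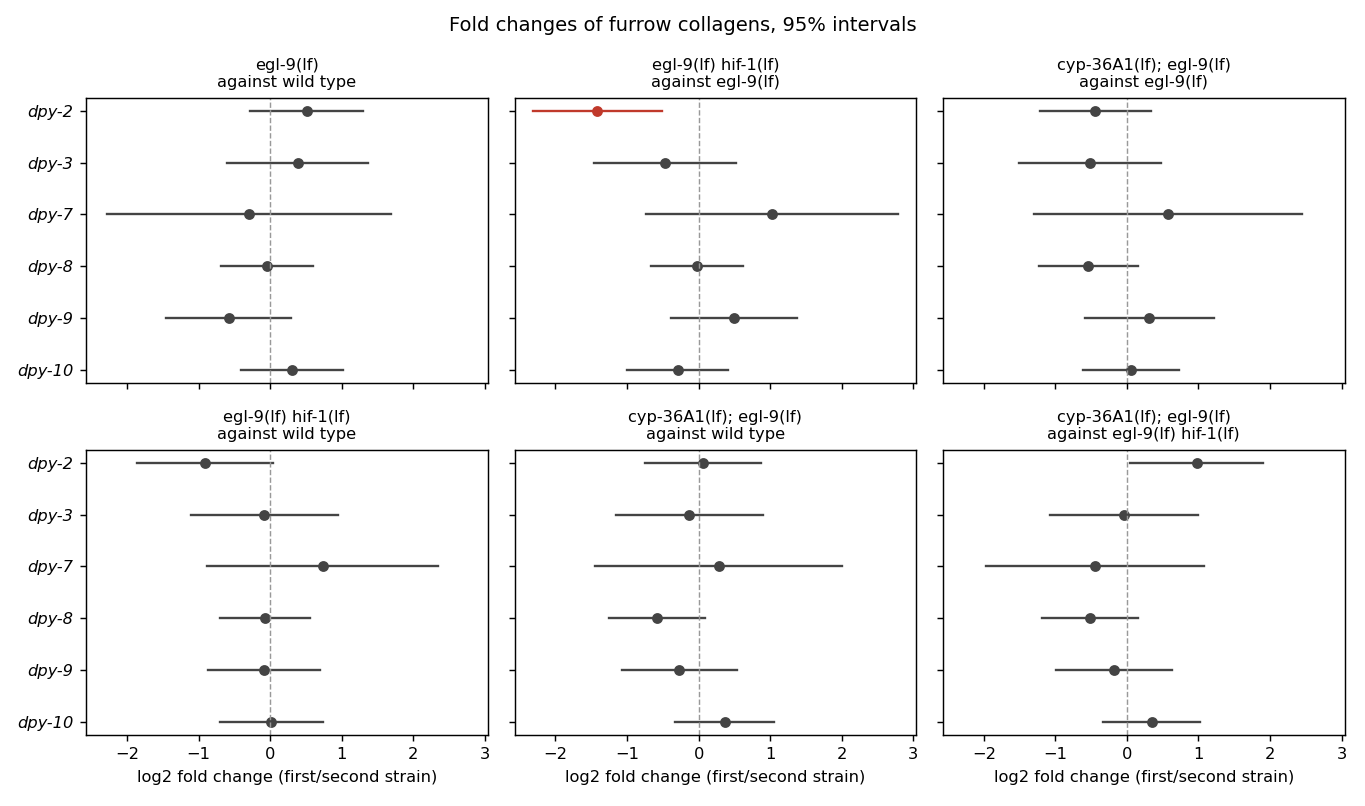
Log2 fold changes (horizontal axis, first strain over second) of the 6 furrow collagens in the 6 pairs of strains, 1 panel per pair, with points for the estimates and bars for 95% intervals from edgeR. The red bar marks the called difference, *dpy-2* at -1.42, and the widest bars belong to *dpy-7*.

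The genes did not share an order of strains. The mean was highest in *egl-9(lf)* mutants for *dpy-2* and *dpy-3*, in the wild type for *dpy-8* and *dpy-9*, in the *hif-1* double mutant for *dpy-7* and in the *cyp-36A1* double mutant for *dpy-10*. The highest strain mean exceeded the lowest by 2.73-fold for *dpy-2*, 2.07-fold for *dpy-7*, 1.55-fold for *dpy-8*, 1.49-fold for *dpy-9*, 1.43-fold for *dpy-3* and 1.27-fold for *dpy-10*. Neighbours in these orders had overlapping libraries, apart from the highest and the lowest step of *dpy-2* and the lowest step of *dpy-8*. In each pair of strains the median log2 fold change of the 6 genes lay between -0.19 and 0.13, and that of all tested features was 0. The libraries of the 2 strains did not overlap in 16 of the 36 comparisons. For *egl-9(lf)* mutants against the wild type they were apart for 2 of 6 genes, *dpy-2* above and *dpy-9* below, whereas 54.2% of all features were apart. For the *hif-1* double mutant against *egl-9(lf)* mutants they were apart for 4 of 6 (48.0% of all features), and for the *cyp-36A1* double mutant against *egl-9(lf)* mutants for 4 of 6 (31.1%). For the other pairs the counts were 1 of 6 (25.6%) for the *hif-1* double mutant against the wild type, 2 of 6 (51.6%) for the *cyp-36A1* double mutant against the wild type and 3 of 6 (44.3%) between the double mutants. Pairs of strains with a strain in common share its libraries.

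Summed over the 6 genes, furrow collagen RNA was 7.36 and 10.4 CPM in wild-type animals, 9.16 and 9.31 CPM in *egl-9(lf)* mutants, 6.79 and 8.83 CPM in the *hif-1* double mutant and 8.58 and 7.71 CPM in the *cyp-36A1* double mutant. The wild-type libraries enclosed all but the lowest of these sums. Between the genes, levels over the 8 libraries were weakly related, with a median Pearson correlation of 0.29 over 15 pairs of genes (from -0.48 to 0.62, 10 of 15 above 0), as a description of libraries that share their depth and preparation. The mean standardised level of the 6 genes, in SD units over the 8 libraries, was -0.52 and 0.91 in the wild type and -0.74 and 0.42 in the *hif-1* double mutant, so that replicates of these strains differed by more than any pair of strain means. Of 12715 other features with a mean of at least 1 CPM, those most like this mean level were *mxt-1* (Pearson r = 0.93 over 8 libraries), *dhp-1* (0.92), C25H3.17 (0.91), *pkg-2* (0.90) and the collagen gene *col-94* (0.90). These were picked as the highest of 12715 correlations over 8 libraries, and how high the top values reach by chance was not tested.

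The furrow collagens were compared with 14 other cuticle collagens whose mutants alter body shape, such as the dumpy, squat, roller and blister genes. Their median level, 0.753 FPKM (from 0.0975 to 20.4), was similar to the 1.02 FPKM of the furrow collagens, and 3 of the 14 lay above *dpy-10*. In *egl-9(lf)* mutants against the wild type 3 of these 14 rose and 1 fell, while with the replicate block or with edgeR's default estimate of the spread 8 rose and 1 fell. Without *egl-9(lf)* replicate 2, 9 rose and 0 fell, and without any other single library 1 or 2 rose. *sqt-3*, a collagen whose mutants are dumpy or roll, rose from 3.91 and 6.50 CPM to 39.2 and 44.3 CPM (log2 fold change 2.93, SE 0.23, edgeR adjusted p = 5.8e-06). *dpy-17* rose by a log2 fold change of 1.39 (edgeR adjusted p = 0.00719), a call lost without either wild-type library, and *bli-6* fell by 1.07 on the log2 scale (edgeR adjusted p = 0.0135), a call lost in 4 of 21 alternatives. Of all tested features, 13.3% were called in *egl-9(lf)* mutants against the wild type and 13.1% in the *hif-1* double mutant against *egl-9(lf)* mutants. In the *hif-1* double mutant against *egl-9(lf)* mutants 1 of 14 rose and 5 fell. The number that fell in this pair was 1 without *egl-9(lf)* replicate 1, 8 without *egl-9(lf)* replicate 2, 2 without either library of the *hif-1* double mutant and 3 or 4 without any other single library, and the one that rose was not called without *egl-9(lf)* replicate 2 or *hif-1* double mutant replicate 2. For the *cyp-36A1* double mutant against *egl-9(lf)* mutants the counts were 0 and 0 in edgeR, where 1.57% of all tested features were called. In edgeR 10 of 14 had an unadjusted p below 0.05, and DESeq2 called 1. In that pair 3 of 14 fell with the replicate block and 7 of 14 without *egl-9(lf)* replicate 2.

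The body-shape collagens also showed a library that stood apart, which the furrow collagens did not. In *egl-9(lf)* replicate 1, 8 of the 14 body-shape collagens were at least 2-fold above the highest of the other 7 libraries, at 1 CPM or more, as were 0.328% of all tested features. The 8 genes, chosen after their values were seen, were *dpy-4*, *dpy-5*, *dpy-13*, *sqt-1*, *sqt-2*, *rol-6*, *rol-8* and *lon-3*, and they stood 2.76- to 17.4-fold above the highest other library. By the same measure 0 of the 6 furrow collagens were apart, and the only member whose highest level was in this library was *dpy-3*, at 1.02 CPM beside at most 0.934 CPM elsewhere. Without this library, the count of body-shape collagens that rose in *egl-9(lf)* mutants was 2, and without *egl-9(lf)* replicate 2 it was 9, whereas 0 of 6 furrow collagens were called in either case. Each of these fits leaves *egl-9(lf)* mutants with 1 library, so the 9 calls rest on replicate 1 alone, with the spread between replicates taken from the other strains. The counts for the *cyp-36A1* double mutant against *egl-9(lf)* mutants moved from 0 lower to 7 lower without *egl-9(lf)* replicate 2, under the same limit. The part of this library in the body-shape counts beyond these values was not tested.

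**Figure D4:**
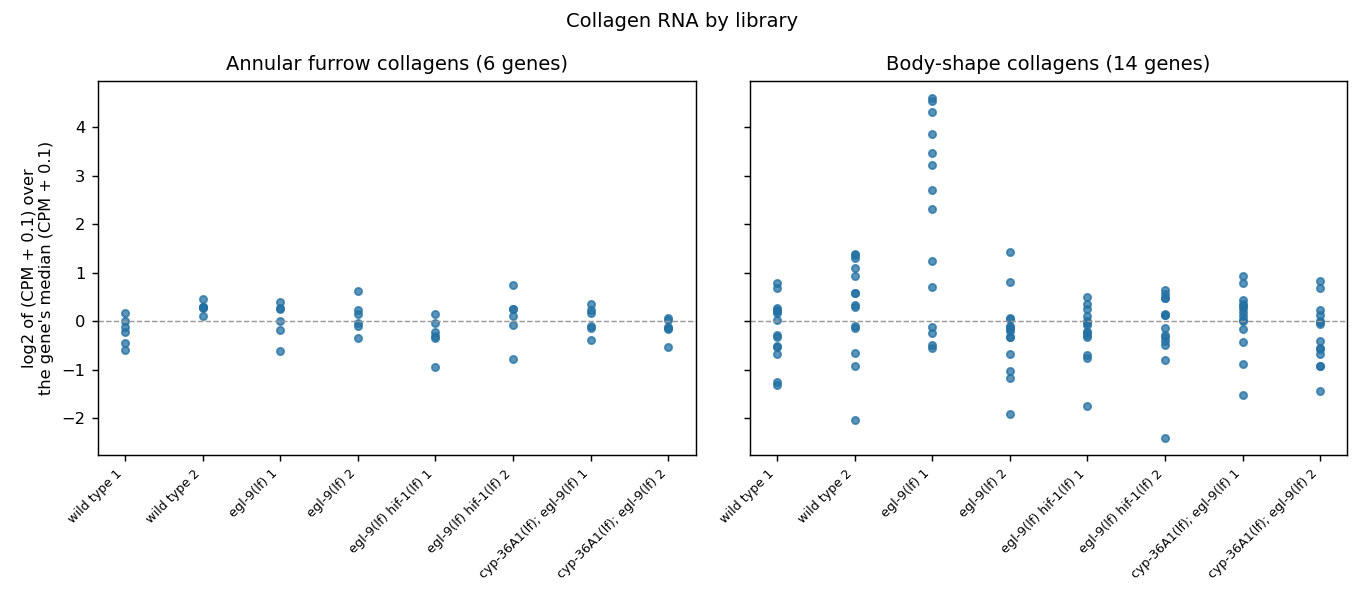
Level of each furrow collagen (left, 6 genes) and each body-shape collagen (right, 14 genes) in the 8 libraries, as the log2 ratio of CPM + 0.1 to the gene's own median + 0.1 (vertical axis). Points are genes. The right panel has a column of high points in *egl-9(lf)* replicate 1, where 8 of 14 genes exceed every other library at least 2-fold, and the left panel has none.

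Some genes for enzymes that act on collagen chains changed with the genotype. Of 12 genes of collagen folding, processing and cross-linking, 3 rose and 1 fell in *egl-9(lf)* mutants against the wild type, and in the *hif-1* double mutant against *egl-9(lf)* mutants 1 rose and 3 fell. In these pairs 13.3% and 13.1% of all tested features were called, in that order. The prolyl 4-hydroxylase subunits *phy-2* and *dpy-18*, whose products hydroxylate collagen prolines in the endoplasmic reticulum, had the largest differences among the 4 called in *egl-9(lf)* mutants against the wild type. *phy-2* rose from 12.2 and 13.8 CPM to 118 and 74.4 CPM (log2 fold change 2.90, SE 0.23, edgeR adjusted p = 5.7e-06). *dpy-18*, whose loss also gives dumpy animals, rose from a mean of 15.1 ± 4.05 CPM (SD, n = 2) to 70.6 ± 20.9 CPM (SD, n = 2) (log2 fold change 2.25, SE 0.24, edgeR adjusted p = 7.5e-05). Both of these calls held in all 21 alternatives. In the *cyp-36A1* double mutant against *egl-9(lf)* mutants 0 of 12 were called by edgeR, where 1.57% of all tested features were. A count of 0 among 12 is near this share. In that pair 0 of the 12 had an unadjusted p below 0.05 in edgeR and DESeq2 called 0.

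The called genes on a list of genes that respond to furrow loss and their regulators did not share a direction in *egl-9(lf)* mutants. Of 7 such genes and regulators, 1 rose and 2 fell in *egl-9(lf)* mutants against the wild type, where 13.3% of all features were called. The antimicrobial peptide gene *nlp-29* rose from a mean of 6.04 ± 0.110 CPM (SD, n = 2) to 17.1 ± 0.141 CPM (SD, n = 2), with an edgeR adjusted p of 0.000645. The detoxification gene *gst-4* fell from 38.6 and 38.0 CPM to 7.72 and 10.4 CPM (log2 fold change -2.09, SE 0.21, edgeR adjusted p = 5.4e-05). *gpdh-1*, which encodes an enzyme of glycerol synthesis, fell from 6.91 and 9.60 CPM to 2.53 and 1.88 CPM (log2 fold change -1.84, SE 0.30, edgeR adjusted p = 0.00156). The median log2 fold change of the 7 genes was -0.07, beside 0 for all features, over a list that mixes responding genes and regulators. In the *hif-1* double mutant against *egl-9(lf)* mutants 2 of the 7 rose and 2 fell, where 13.1% of all features were called. The log2 fold change was 1.93 for *gst-4* (edgeR adjusted p = 0.000101) and -1.99 for *nlp-29* (edgeR adjusted p = 0.000113). For *gpdh-1* it was 1.06 (edgeR adjusted p = 0.0493), a call lost in 15 of 21 alternatives. In the *cyp-36A1* double mutant against *egl-9(lf)* mutants 1 of the 7 was called, where 1.57% of all features were. This was *nlp-29*, with a log2 fold change of -1.06 (edgeR adjusted p = 0.0185), a call lost in 7 of 21 alternatives. In that pair 3 of the 7 had an unadjusted p below 0.05 in edgeR, and DESeq2 called 2. *gpdh-1* had a log2 fold change of -1.975 (SE 0.48, edgeR adjusted p = 0.0777) and was not called. With the replicate block 2 of the 7 fell in that pair.

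Regulators of the epidermis and of molting were examined beside the furrow collagens. Of 11 epidermal and molting regulators, mostly transcription factors, edgeR called 0 in *egl-9(lf)* mutants against the wild type (2 at an unadjusted p below 0.05, 1 with DESeq2) and 0 in the *cyp-36A1* double mutant against *egl-9(lf)* mutants (0 at an unadjusted p below 0.05, 0 with DESeq2). In the *hif-1* double mutant against *egl-9(lf)* mutants 1 fell. With the replicate block 1 regulator rose and 2 fell in *egl-9(lf)* mutants against the wild type, and 2 rose and 1 fell in the *hif-1* double mutant against *egl-9(lf)* mutants. Of 12 genes expressed or required in molting, 1 rose and 2 fell in *egl-9(lf)* mutants against the wild type. The median log2 fold change of the 12 was 0.12. Their summed level was 104 to 116 CPM in *egl-9(lf)* mutants and 118 to 134 CPM in wild-type animals. The largest part of this sum was *lrp-1*, among the 2 that fell, with means of 57.0 CPM in *egl-9(lf)* mutants and 79.7 CPM in the wild type. The one that rose was *mlt-10*, from 1.87 and 1.94 CPM to 14.8 and 17.8 CPM (log2 fold change 3.08, SE 0.26, edgeR adjusted p = 9.9e-06). In the *cyp-36A1* double mutant against *egl-9(lf)* mutants *mlt-10* rose further, by a log2 fold change of 0.83 (edgeR adjusted p = 0.0450), a call lost in 13 of 21 alternatives. Of 9 adult-stage genes, mostly yolk proteins, 1 rose and 6 fell in *egl-9(lf)* mutants against the wild type. For comparison with these lists, 13.3% of all tested features were called in that pair. In the *hif-1* double mutant against *egl-9(lf)* mutants the share was 13.1%, and in the *cyp-36A1* double mutant against *egl-9(lf)* mutants it was 1.57%. The part of stage or of any other difference between cultures in the furrow collagen levels was not tested.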

How the data were processed

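The authors deposited expected counts and FPKM values per feature, made from single-end reads of polyadenylated RNA with RSEM 1.2.15 and Bowtie 1.0.1 and aligned to ce10 with genes from Ensembl 65, unfiltered and not scaled between libraries. The FPKM deposited by the authors divide each count by effective length and library total. No strand setting is given in the sources used here. Expected counts were rounded, since 36.1% of those above 0 were not whole, and a feature was tested when its rounded count was above 0 in at least 1 library. Reads shared by similar genes were divided by RSEM, so such values are uncertain.

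All 8 libraries were fitted together in edgeR 4.0.16 (R 4.3.3): TMM scaling, a mean per strain, glmQLFit with the revised estimate of the spread (prior degrees of freedom 7.80), glmQLFTest for the 6 pairs of strains, and Benjamini-Hochberg adjustment over all 21372 features. The edgeR default was an alternative, because its prior degrees of freedom were infinite. CPM use TMM-scaled library sizes. Fold changes from FPKM in limma 3.58.1 used pseudocounts of 0.5, 0.1 and 1 and features with at least 1 FPKM in at least 2 libraries. Other alternatives were DESeq2 1.42.0, other scalings and filters, a stricter threshold, the replicate block and each library left out. Scripts were tested on simulated data.

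Samples were grouped by the genotype and replicate number in their labels. The replicates came from separate populations. Deviations from strain means correlated between same-numbered libraries in 6 of 6 pairs of strains (r from 0.13 to 0.36). The main fit did not pair these libraries, so its SE, intervals and p-values ignore this correlation. Pairing entered only in the alternatives with the replicate block. Poisson intervals cover counting error only.

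The genes and the gene lists were chosen with earlier results of these data known. Named beside the 6 collagens were the 3 mutated genes, at most the 3 genes of each list with the smallest adjusted p in *egl-9(lf)* mutants against the wild type, genes called in the *cyp-36A1* double mutant where a sentence turns on them, and the 5 features most like the mean furrow collagen level. Outside this rule, the 6 epidermal markers were named as a list, and the 8 body-shape collagens that stood apart in 1 library were named after their values were seen. Chromosomes and neighbours came from the WBcel235 annotation and no coordinates were used, since the builds differ. Sequences were not used here.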

Additional observations from a re-analysis of the deposited data

How the results depend on the processing

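The single call, *dpy-2* in the *hif-1* double mutant against *egl-9(lf)* mutants, made the count of furrow collagens 1 of 6. The count was 0 with all annotated features tested, with DESeq2, with only the 2 strains compared, at an adjusted p of 0.01 and when each library was left out (0 to 0). With more features tested the adjustment is heavier, and the cause of the other losses was not tested. The counts in the other 5 pairs were 0 under every alternative. Fits with the replicate block, which pairs same-numbered libraries, kept the *dpy-2* call (log2 fold change -1.42, edgeR adjusted p = 0.0326) and changed no other call among the furrow collagens.

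Of 732 values of single furrow collagens under the alternatives, 683 kept their direction and side of the threshold, 12 lost the call (all *dpy-2*) and 37 changed sign, none of them called. Outside the fits that left out a library, *dpy-8* in *egl-9(lf)* mutants against the wild type became 0.017 with library totals alone. *dpy-10* in the *cyp-36A1* double mutant against *egl-9(lf)* mutants became -0.014 with library totals, and -0.044, -0.048 and -0.039 with limma at pseudocounts of 0.5, 0.1 and 1. *dpy-10* in the *hif-1* double mutant against the wild type became -0.053 with the default estimate, -0.0023 with median-ratio scaling, -0.086 with DESeq2, -0.0061 with the 2 strains alone and -0.038 with the default estimate and block. *dpy-3* between the double mutants became 0.0065, 0.014 and 0.0032 with limma at 0.5, 0.1 and 1.

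With each library left out, the following log2 fold changes ranged across 0. In the *cyp-36A1* double mutant against *egl-9(lf)* mutants they ran from -0.10 to 0.31 for *dpy-10*. In the *cyp-36A1* double mutant against the wild type they ran from -0.13 to 0.78 for *dpy-10*, from -0.14 to 0.21 for *dpy-2*, from -0.46 to 0.094 for *dpy-3* and from -0.41 to 0.87 for *dpy-7*. In *egl-9(lf)* mutants against the wild type they ran from -0.19 to 0.72 for *dpy-10*, from -0.99 to 0.29 for *dpy-7* and from -0.22 to 0.066 for *dpy-8*. In the *hif-1* double mutant against the wild type they ran from -0.48 to 0.43 for *dpy-10*, from -0.42 to 0.14 for *dpy-3*, from -0.35 to 0.15 for *dpy-8* and from -0.26 to 0.051 for *dpy-9*. In the *cyp-36A1* double mutant against the *hif-1* double mutant they ran from -0.26 to 0.25 for *dpy-3* and from -0.88 to 0.0084 for *dpy-7*. In the *hif-1* double mutant against *egl-9(lf)* mutants they ran from -0.31 to 0.20 for *dpy-8*.

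The count of all called features moved by more than 1.5 times in some settings. For *egl-9(lf)* mutants against the wild type it was 2840, and 1506 at 0.01, 4383 with both the default estimate and the block and 1126 to 3423 leaving out a library. For the *hif-1* double mutant against *egl-9(lf)* mutants it was 2802, and 1735 at 0.01 and 1662 to 3201 leaving out a library. For the *cyp-36A1* double mutant against *egl-9(lf)* mutants it was 335, and 211 at 0.01, 840 with the default estimate, 570 with the block, 941 with both and 192 to 415 leaving out a library. For the *hif-1* double mutant against the wild type it was 46, and 27 at 0.01, 151 with the default estimate, 176 with both, 24 with limma at 0.1, 30 with limma at 1 and 15 to 49 leaving out a library. For the *cyp-36A1* double mutant against the wild type it was 2606, and 1150 at 0.01, 4321 with both and 717 to 3392 leaving out a library. For the *cyp-36A1* double mutant against the *hif-1* double mutant it was 2609, and 1454 at 0.01 and 1305 to 3156 leaving out a library. With 33 to 382 reads per gene over 8 libraries, intervals of uncalled differences reached from 0.206 to 6.90 of the compared level. Both extremes belonged to *dpy-7*, the gene with 33 reads. Intervals of genes with more reads were narrower, such as 0.618 to 1.51 for *dpy-8* in *egl-9(lf)* mutants against the wild type.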
